A study of Mus musculus with 30 samples.

Results

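The 8 genes described here are transcription factors of the lateral plate mesoderm and of the hindlimb field: Hand1, Hand2, Isl1, Foxf1, Tbx3, Tbx4, Pitx1 and Prrx1. They were taken by name from the count table, which holds 54134 genes. Their RNA was counted in 30 libraries of mouse Bruce4 embryonic stem cells (ESCs) and their derivatives on the way to neuromesodermal progenitors (NMPs), the tail-end cells that supply spinal cord and mesoderm. The libraries form 10 groups of 3 replicates. ESCs of both genotypes received FGF2 for 2 days (d2), then the Wnt pathway agonist CHIR99021 in addition, and were sampled at d2.5 and d3. The last samples, at d4, followed 1 more day in FGF2 and CHIR99021, either alone (d4) or with the growth factor Gdf11 added (d4G). Cells were wildtype or Nr6a1-/-, the latter being 1 CRISPR clone with deletions in both alleles of the nuclear receptor gene Nr6a1, so that an effect of the genotype and one of the clone cannot be told apart. The labels do not say that replicates came from separate cultures, and p-values measure only the spread between these libraries.

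As the trunk of an embryo gives way to its tail, Gdf11 signalling marks the level at which the hindlimb and the cloaca form. At that level the lateral plate mesoderm, which builds limb buds, the gut wall and the body wall, turns on a battery of factors in which Isl1 and the Hand genes act early, Tbx4 and Pitx1 give the bud its hindlimb character, and Prrx1 marks limb mesenchyme. Foxf1 is the forkhead factor of the splanchnic layer that lines the gut, and Tbx3 is a T-box repressor used in limb bud margins, in heart and in pluripotent cells. Nr6a1 is a transcriptional repressor of the trunk phase, and Gdf11 lowers its RNA.

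Library totals ranged from 1570714 to 3688197 counts, with a median of 2366002, so that 3 counts in a library amount to between 0.829 and 1.91 CPM (counts scaled to a common library total). All levels below are CPM scaled by TMM factors. Because reads come from the 3′ end of polyadenylated RNA, the level of a gene was not divided by its length, and levels are compared between groups and not between genes. Nr6a1 itself is no check of the labels, since 3′ reads lie outside the deleted exon, and its RNA was higher in Nr6a1-/- cells at d3 (177 ± 9.63 against 287 ± 29.2 CPM, SD, n = 3) and in both arms of d4. Genes were tested with edgeR's quasi-likelihood test, 2-sided, and called at a Benjamini-Hochberg FDR below 0.05 over the 12149 genes that exceeded both 10 counts and 2 CPM in 2 or more libraries of a group. Tested genes of chromosome 8 were lower as a block in the Nr6a1-/- clone, and their share of a library's counts was 4.88% to 5.51% in wildtype and 3.76% to 4.32% in Nr6a1-/- libraries. Fewer cells of a kind and less RNA per cell cannot be told apart in these bulk libraries.

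Only 4 of the 8 factors, Foxf1, Tbx3, Pitx1 and Prrx1, passed the filter, and the groups through which they passed differed. Tbx3 passed in 9 of the 10 groups, Foxf1 in 3 (d4 wildtype and d4G of both genotypes), Pitx1 in 2 (wildtype d4 and d4G) and Prrx1 in 1 (wildtype d4). A factor that passed only through groups where it was high was favoured to be higher there than in the other groups. The number and the direction of the factors called in a comparison are therefore a description and no support for a change of the set. Hand1, Hand2, Isl1 and Tbx4 never exceeded 7 counts in any library and were not tested.

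The label of the set was therefore met in part. Isl1, the LIM-homeodomain factor that is needed for the hindlimb bud to start, had 26 counts in all 30 libraries together, with at most 4 counts in 1 library. At d4G it had 0, 2 and 0 counts in the wildtype replicates and no count in the Nr6a1-/- replicates, which allows up to 0.502 CPM over that group. Hand2, a basic helix-loop-helix (bHLH) factor of the limb bud and heart, had 7 counts in 5 libraries, none of them in a d4G library. Neither gene therefore rose to a detectable level with Gdf11 at this depth.

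Tbx4, the T-box factor of the hindlimb bud, had 67 counts in 24 libraries. At d4G it stood at 0.93, 1.62 and 2.11 CPM in the 3 wildtype replicates and at 0.962, 1.91 and 1.72 CPM in the Nr6a1-/- replicates, against 0.436, 1.11 and 0.901 CPM and 0.866, 0 and 0.852 CPM at d4. The pooled counts gave a ratio of d4G to d4 of 1.82 (95% exact interval 0.667 to 5.21) in wildtype and 2.53 (0.706 to 11.2) in Nr6a1-/- cells. Both intervals include 1, and a difference was not detectable at this depth. These intervals cover counting error only.

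Hand1, the bHLH factor of lateral mesoderm and extraembryonic mesoderm, had 75 counts in 26 libraries. It was lowest at d2, with a mean of 0.292 ± 0.269 CPM in wildtype against 0.126 ± 0.219 CPM in Nr6a1-/- cells (SD, n = 3). Its mean was highest in wildtype d4G cells (1.4, 1.62 and 2.53 CPM), which overlapped wildtype d4 cells (2.18, 1.93 and 0.901 CPM). The pooled count ratio of d4G to d4 was 1.15 in wildtype (95% exact interval 0.502 to 2.58). The Nr6a1-/- d4G replicates held 0.962, 1.27 and 0 CPM, below all 3 wildtype replicates but resting on 4 counts against 13. Without the filter, the lowest FDR of any of these 4 factors in the 13 comparisons between 2 groups and the 3 differences between genotypes was 0.335 (edgeR), for Hand1 between d2 and d2.5 of Nr6a1-/- cells.

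**Figure D1:**
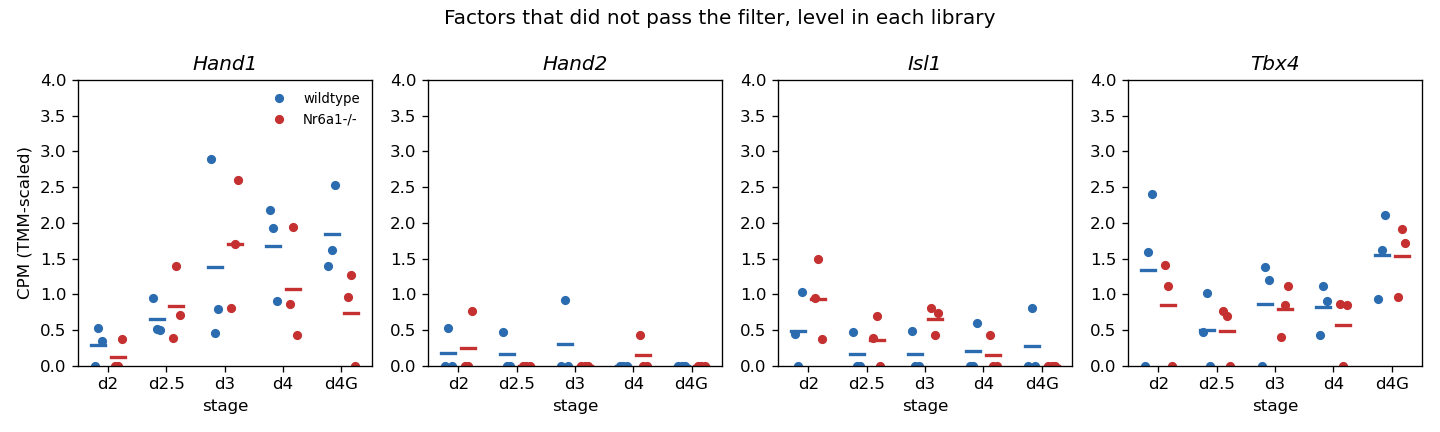
TMM-scaled CPM (y axis, linear) of Hand1, Hand2, Isl1 and Tbx4 in each library by stage (x axis), wildtype in blue and Nr6a1-/- in red, with a bar at the mean of the 3 replicates. No library exceeds 2.9 CPM, and at d4 and d4G Isl1 stays at or below 2 counts and Hand2 at or below 1 count in each library.

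Tbx3 had the highest counts of the 8 factors, up to 335 in a library, and it changed most often. At d2 it stood at 8.75, 9.56 and 7.57 CPM in the 3 wildtype replicates and at 2.82, 3.0 and 5.69 CPM in the Nr6a1-/- replicates. CHIR99021 was followed by a rise in both genotypes, to 36.7, 30.5 and 54.1 CPM in wildtype and 28.0, 29.1 and 24.7 CPM in Nr6a1-/- cells at d2.5. The log2 fold change from d2 to d2.5 was 2.24 (SE 0.243, edgeR FDR = 5.67e-09) in wildtype and 2.79 (SE 0.289, FDR = 1.56e-09) in Nr6a1-/- cells. All 3 replicates at d2.5 lay above all 3 at d2 in each genotype.

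Wildtype cells held Tbx3 at 30.9, 38.2 and 43.2 CPM at d3 and at 27.9, 26.2 and 35.7 CPM at d4, and neither step passed the test (FDR = 0.798 and 0.226). Nr6a1-/- cells fell to 10.4, 11.5 and 12.6 CPM at d3 (log2 fold change -1.23, SE 0.23, FDR = 0.00015) and held 8.23, 8.22 and 15.3 CPM at d4. Tbx3 was thus 3.25-fold lower in Nr6a1-/- cells at d3 (log2 fold change -1.70, SE 0.225, FDR = 1.14e-06) and 2.8-fold lower at d4 (-1.49, SE 0.234, FDR = 8.34e-06), with no overlap between replicates at either stage. At d2 and d2.5 the replicates did not overlap either, but the differences, -1.12 (SE 0.372) and -0.57 (SE 0.192), had FDR = 0.0871 and 0.0723. Between d2 and d3 the change in Tbx3 was not called as different between genotypes (-0.58, SE 0.461, FDR = 0.626).

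With Gdf11 the order of the genotypes turned. After the last day in Gdf11, Tbx3 reached 79.1, 74.3 and 104 CPM in wildtype and 161, 168 and 133 CPM in Nr6a1-/- replicates, the highest levels of any group in each genotype. The rise over d4 was 2.85-fold in wildtype (log2 1.51, SE 0.168, FDR = 8.82e-09) and 14.3-fold in Nr6a1-/- cells (log2 3.84, SE 0.201, FDR = 1.57e-17). The difference between these responses was itself called, at 2.33 on the log2 scale (95% interval 1.77 to 2.89, FDR = 7.15e-07). Tbx3, lower in Nr6a1-/- cells at d3 and d4, was 1.79-fold higher there at d4G (log2 0.84, SE 0.149, FDR = 0.000111). In the order of its group means, d4G of Nr6a1-/- cells (154 ± 18.4 CPM, SD, n = 3) and d4G of wildtype cells (85.7 ± 15.8) each stood clear of the next group, whereas the 4 groups below them, wildtype d2.5, d3 and d4 and Nr6a1-/- d2.5, overlapped from each to the next.

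**Figure D2:**
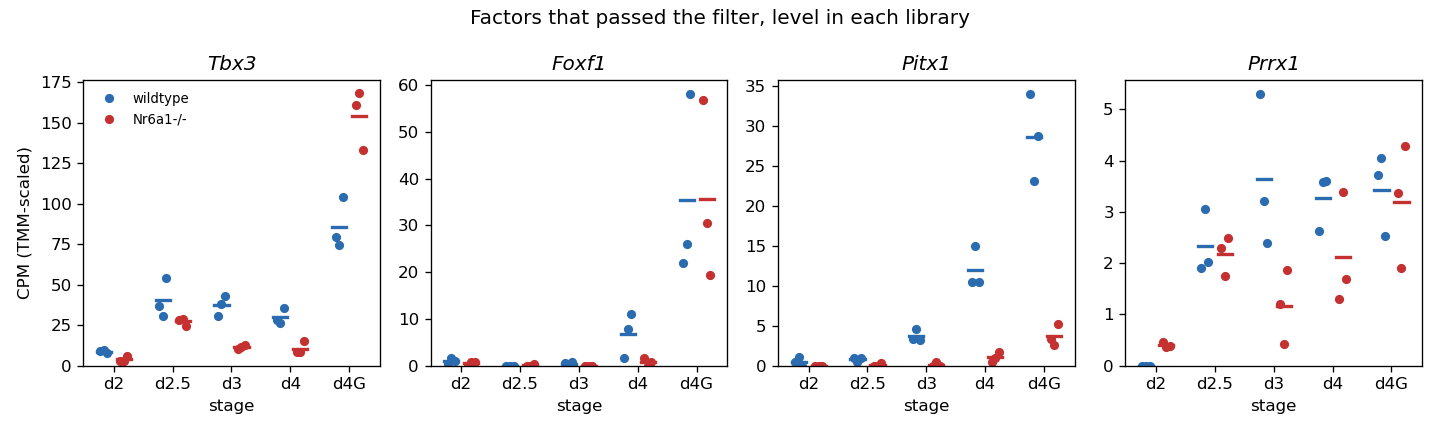
TMM-scaled CPM (y axis, linear, a separate scale in each panel) of Tbx3, Foxf1, Pitx1 and Prrx1 in each library by stage (x axis), wildtype in blue and Nr6a1-/- in red, with a bar at the mean of the 3 replicates. Tbx3 at d4G is highest in Nr6a1-/- cells, Foxf1 at d4G overlaps between genotypes, and Pitx1 stays at or below 5.15 CPM in Nr6a1-/- cells.

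Foxf1 was a late gene. Up to d3 no library held more than 3 of its counts, and its fitted differences before d4 rest on too few counts to be read. At d4 the wildtype replicates had 4, 28 and 37 counts (1.74, 7.74 and 11.1 CPM) and the Nr6a1-/- replicates 4, 0 and 2 counts (1.73, 0 and 0.852 CPM). The wildtype rise from d3 passed the test (FDR = 0.00227), at a pooled count ratio of 16.8 (95% exact interval 5.51 to 83.3). Foxf1 was 7.82-fold lower in Nr6a1-/- cells at d4 (log2 -2.97, SE 0.799, FDR = 0.00763). The wildtype replicates spread widely, replicate 1 (1.74 CPM) lying next to the highest Nr6a1-/- replicate (1.73 CPM), and without wildtype replicate 3 the difference was -2.5 with FDR = 0.0504. Without Nr6a1-/- replicate 1, which holds 4 of the 6 Nr6a1-/- counts, it was -3.88 (SE 1.1, FDR = 0.00986).

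With Gdf11, Foxf1 rose to 21.9, 26.0 and 58.2 CPM in wildtype and 56.8, 30.6 and 19.3 CPM in Nr6a1-/- cells. The groups overlapped fully and their means were 35.3 ± 19.9 and 35.5 ± 19.2 CPM (SD, n = 3), a log2 difference between -0.663 and 0.662 (95% interval). The rise over d4 was 4.82-fold in wildtype (log2 2.27, SE 0.389, FDR = 3.58e-05) and 37.6-fold in Nr6a1-/- cells (log2 5.24, SE 0.626, FDR = 9.92e-08), where the d4 level rests on 6 counts. Without d4 replicate 1 the Nr6a1-/- rise was 6.15 on the log2 scale (SE 0.836, FDR = 1.9e-06). The difference between the responses, 2.97 on the log2 scale (95% interval 1.17 to 4.76), was not called (FDR = 0.066). Its FDR ranged from 2.66e-05 to 0.201 over the alternatives described in the closing section, below the threshold under some of them. The biological coefficient of variation of Foxf1 was 0.364, against a median of 0.121 over 2147 genes of like level, so that its replicates varied more than those of nearly all such genes.

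Foxf1 lies at chr8:121084386-121088144 on the plus strand (GRCm38), and Hand2 at chr8:57320983-57324633 on the same strand. Over 653 tested genes of chromosome 8 the median log2 difference between Nr6a1-/- and wildtype cells was -0.294 at d4 and -0.313 at d4G, and 73.7% and 82.8% of them were lower. At d4 Foxf1 lay 2.67 log2 units below that median, at the 1.38 percentile of the chromosome's genes. At d4G it lay 0.313 above the median, at the 82.7 percentile. Of 18 tested genes within 1 Mb of Foxf1, 15 were lower in Nr6a1-/- cells at each of these stages, and their median differences were -0.404 and -0.351. Foxc2, a forkhead gene of paraxial mesoderm beside Foxf1, was the exception that was called higher at d4 (log2 1.02, SE 0.285, FDR = 0.0117), and it fell with Gdf11 in wildtype (-2.25, FDR = 0.00024) and in Nr6a1-/- cells (-2.66, FDR = 7.44e-06) where Foxf1 rose. For Hand2, 2 of 6 tested neighbours within 1 Mb were lower at d4 and 4 at d4G, and with 1 count of Hand2 over the 12 libraries of d4 and d4G no share of the lowered chromosome can be read for the gene itself.

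**Figure D3:**
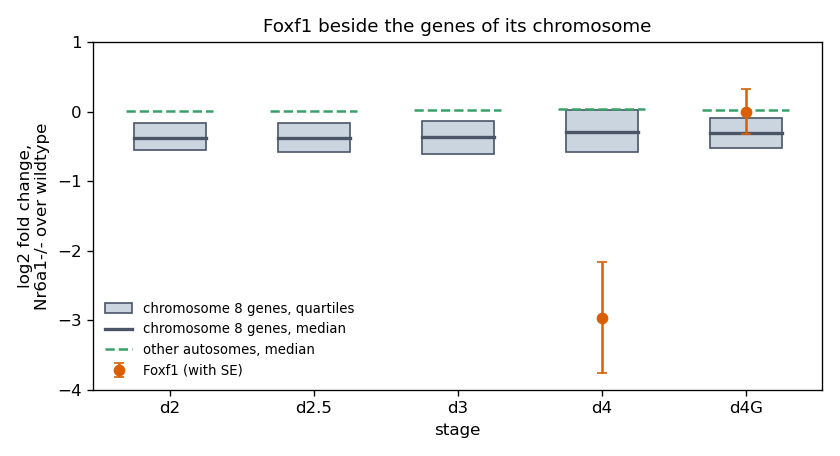
Log2 fold change of Nr6a1-/- over wildtype cells (y axis) at each stage (x axis): quartiles (box) and median (dark line) of the 653 tested genes of chromosome 8, median of other autosomes (green dashes) and Foxf1 with its SE (orange). Foxf1 is drawn at d4 and d4G only, since its counts at earlier stages were too few to be read. Foxf1 lies far below the box at d4 and above its median at d4G.

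Pitx1, the homeodomain factor that sets hindlimb against forelimb identity, was low in Nr6a1-/- cells throughout. In wildtype cells it had 0 to 2 counts per library up to d2.5 and then rose at each step, to 3.38, 4.60 and 3.20 CPM at d3, 10.5, 14.9 and 10.5 CPM at d4 and 34.0, 23.1 and 28.7 CPM at d4G. The steps had log2 fold changes of 2.10 from d2.5 to d3 (FDR = 0.0204), 1.69 from d3 to d4 (FDR = 0.000251) and 1.23 from d4 to d4G (SE 0.235, FDR = 0.000134). The replicates of successive stages did not overlap from d2.5 on. The call from d2.5 to d3 was lost without wildtype replicate 1 of d2.5 (FDR = 0.0559), replicate 2 of d2.5 (0.0847) or replicate 2 of d3 (0.0778).

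In Nr6a1-/- cells Pitx1 had 1 count in the 3 libraries of d3 together, 0.433, 0.968 and 1.70 CPM at d4 and 3.37, 2.55 and 5.15 CPM at d4G. The levels in Nr6a1-/- cells rest on 7 pooled counts at d4 and 23 at d4G. The differences between genotypes were called at d3 (FDR = 0.000287, pooled count ratio 0.0359 with a 95% exact interval of 0.000874 to 0.219), at d4 (11.1-fold lower, log2 -3.48, SE 0.433, FDR = 1.61e-07) and at d4G (7.36-fold lower, log2 -2.88, SE 0.311, FDR = 1.87e-08). No Nr6a1-/- replicate reached a wildtype replicate of the same stage from d3 on. Pitx1 entered the tests only through wildtype d4 and d4G, the high side of the comparisons at those stages, so the filter favoured the direction of these calls. Gdf11 nonetheless raised Pitx1 in Nr6a1-/- cells, 3.55-fold (log2 1.83, SE 0.572, FDR = 0.022), a call that was lost without d4 replicate 1 (1.47, FDR = 0.116), d4 replicate 2 (1.78, FDR = 0.0539) or d4G replicate 3 (1.5, FDR = 0.142). The response did not differ detectably between genotypes (log2 0.60, 95% interval -0.648 to 1.84, FDR = 0.725).

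Markers of endoderm moved with the genotype in the same direction as Pitx1. The summed level of 7 endoderm markers, at the stages where Pitx1 was called, was 32.8 to 41.2 CPM in wildtype and 1.86 to 5.62 CPM in Nr6a1-/- replicates at d3, 43.7 to 58.0 against 2.13 to 7.26 CPM at d4, and 60.9 to 72.6 against 3.86 to 7.01 CPM at d4G. All 4 markers tested, Sox17, Foxa2 and Ttr among them, were called lower at d4 and at d4G, while Cer1 had no count in any library. At d3 3 of the 4 were called lower. The sum was already lower before Pitx1 was called, at 10.3 to 14 against 0.749 to 3.41 CPM at d2. At d2.5 it was 19.1 to 32.9 against 1.4 to 3.84 CPM. Of the 4 tested endoderm markers, 2 were called lower at d2 and 4 at d2.5. The part of these cells in the levels of Pitx1 was not tested. Over 8 markers of feeder fibroblasts, which express Prrx1, the sum at d4G was 26.5 to 37.9 CPM in wildtype and 33.0 to 43.3 CPM in Nr6a1-/- replicates. Lum and Fap had no count in either of these groups. At d3 the sum was 47.4 to 55.2 against 61.4 to 74.8 CPM, but the markers did not move together. Col1a2 stood at 30.8 against 44.5 CPM there and Col1a1 at 10.7 against 4.91 CPM. Of the 4 tested, 1 was called higher and 1 lower at d3, and 0 higher and 1 lower at d4G. Over 8 paraxial mesoderm markers, the sum was 143 to 162 against 448 to 476 CPM at d4, where Foxf1, Tbx3 and Pitx1 were lower in Nr6a1-/- cells, and 110 to 129 against 187 to 195 CPM at d4G. Of the 6 of them that were tested, 4 were called higher and 1 lower at d4. Over 8 trophoblast markers the sum was 225 to 244 against 130 to 139 CPM at d4 and 188 to 200 against 75.9 to 91.1 CPM at d4G. Most of it at d4 was Krt18 (mean 89 against 27.6 CPM), Krt8 (39.3 against 11.6) and Cdx2 (96.3 against 90.5). Elf5 had 1 count in the wildtype libraries of d4 and no count in Nr6a1-/- libraries of d4 or in any d4G library. Of the 7 tested trophoblast markers, edgeR called 2 lower at d4. For d4G the number was 4. No marker of this list was called higher at these stages. The presence of trophoblast cells was not tested. Over 7 cardiac markers the sum at d4G was 15.6 to 21.9 against 28.9 to 32.5 CPM, with Actc1 at a mean of 2.86 against 16.4 CPM. Of the 4 tested, 1 was called higher and 0 lower there. Over 7 neural markers the sum at d4G was 38.8 to 55.8 against 17.8 to 18.3 CPM, with 0 of 7 tested called higher and 2 lower. The part of cells with paraxial mesoderm, trophoblast, cardiac or neural markers in the levels of Foxf1, Tbx3 and Pitx1 was not tested. Other marker lists are not reported here.

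Prrx1, the paired-type homeodomain factor of limb and craniofacial mesenchyme, stayed near the limit of the data, with at most 13 counts in a library. It had no count in the 3 wildtype libraries of d2 and 1 count in each Nr6a1-/- library of d2, then 1.91, 3.05 and 2.02 CPM in wildtype and 2.30, 1.75 and 2.5 CPM in Nr6a1-/- cells at d2.5. The rise was called in both genotypes (FDR = 0.000222 and 0.00967), and rested on 14 pooled counts against 0 in wildtype, a ratio with a 95% exact lower limit of 3.88. In Nr6a1-/- cells the pooled counts gave a ratio of 5.4 (95% exact interval 1.58 to 28.6). At d3 it stood at 5.31, 3.22 and 2.40 CPM in wildtype and 1.20, 0.428 and 1.86 CPM in Nr6a1-/- cells, which was called lower (log2 -1.54, SE 0.493, FDR = 0.0386). This call was lost under 6 of 12 alternatives, and its FDR ranged from 0.0281 to 0.238 over all 12. With Gdf11 Prrx1 stood at 3.72, 4.06 and 2.53 CPM in wildtype and 3.37, 1.91 and 4.29 CPM in Nr6a1-/- cells, a difference from d4 of 0.04 (95% interval -0.742 to 0.825) and 0.66 (-0.294 to 1.61) on the log2 scale. Prrx1 was the tested factor that was not called in either Gdf11 comparison.

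Set side by side, the genotype comparisons called 0 of 4 tested factors at d2 (against 4.07% of all tested genes) and 0 at d2.5 (6.45%). They called 3 at d3 (10.8%) and again 3 at d4 (18.9%), then 2 at d4G (7.9%). All 6 calls at d3 and d4 were lower in Nr6a1-/- cells, and those at d4G were Tbx3 higher and Pitx1 lower. Pitx1 and Prrx1 passed the filter only through wildtype groups, and at d4 Foxf1 passed in wildtype and not in Nr6a1-/- cells. A lower level in Nr6a1-/- cells was therefore favoured for these factors, and the shared direction is no support for a change of the set. At an unadjusted p under 0.05, Tbx3 and Pitx1 lower and Prrx1 higher were past the threshold at d2, and Tbx3 and Pitx1 lower at d2.5, all with edgeR. Removing the filter, DESeq2, and a fit of only the libraries compared each called Tbx3 lower at d2. At d2.5 no other fit with all libraries called a factor.

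**Figure D4:**
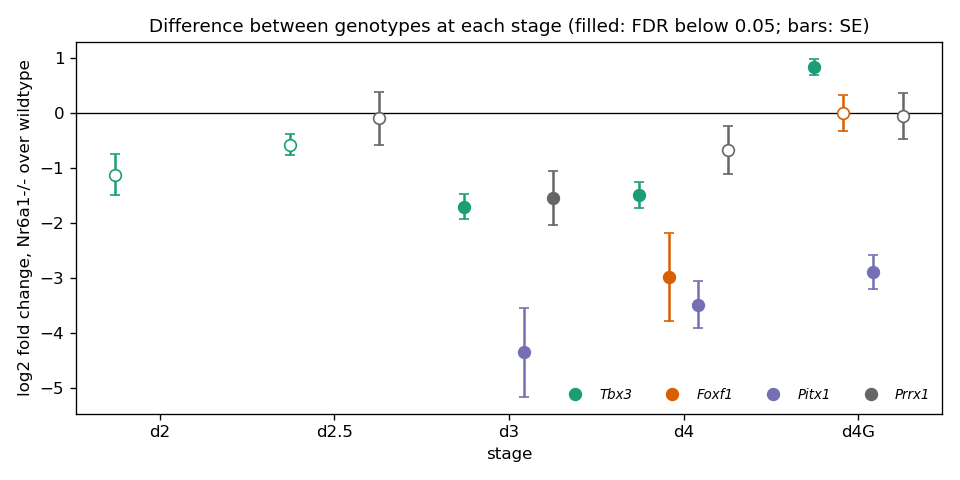
Log2 fold change of Nr6a1-/- over wildtype cells (y axis) with its SE at each stage (x axis) for Tbx3 (green), Foxf1 (orange), Pitx1 (purple) and Prrx1 (grey), filled where the edgeR FDR is below 0.05; differences with fewer than 10 pooled counts in both groups are not drawn. Tbx3 lies below 0 at d3 and d4 and above it at d4G, and Pitx1 lies below -2 from d3 on.

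The response to Gdf11 was called for 3 of the 4 tested factors in wildtype (against 28.8% of all tested genes) and for the same 3, Foxf1, Tbx3 and Pitx1, in Nr6a1-/- cells (18%), higher in each case. The difference between genotypes in this response was called for 1, Tbx3 (2.66%). Both responses are measured against d4, where Foxf1, Tbx3 and Pitx1 were lower in Nr6a1-/- cells. In Nr6a1-/- cells Foxf1 passed the filter at d4G and not at d4, which favoured a rise there. In wildtype cells Foxf1 and Pitx1 passed the filter at d4 and not at d3, which favoured a rise from d3 to d4. In the steps of wildtype cells, 2 factors were called from d2 to d2.5 (Tbx3 and Prrx1 higher, against 25.4% of all tested genes), 1 from d2.5 to d3 (Pitx1 higher, 11.5%) and 2 from d3 to d4 (Foxf1 and Pitx1 higher, 21.1%). In Nr6a1-/- cells they were 2 from d2 to d2.5 (Tbx3 and Prrx1 higher, 24.1%), 1 from d2.5 to d3 (Tbx3 lower, 15.9%) and 0 from d3 to d4 (25.9%), where Pitx1 was past an unadjusted p of 0.05 with edgeR and DESeq2 called Foxf1 higher. Tests of whether the step from d2 to d3 (2.27% of all tested genes) or that from d3 to d4 (5.72%) differed between genotypes called 0 factors with edgeR and with DESeq2. Prrx1 was past an unadjusted p of 0.05 in the first of them and no factor in the second.

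**Figure D5:**
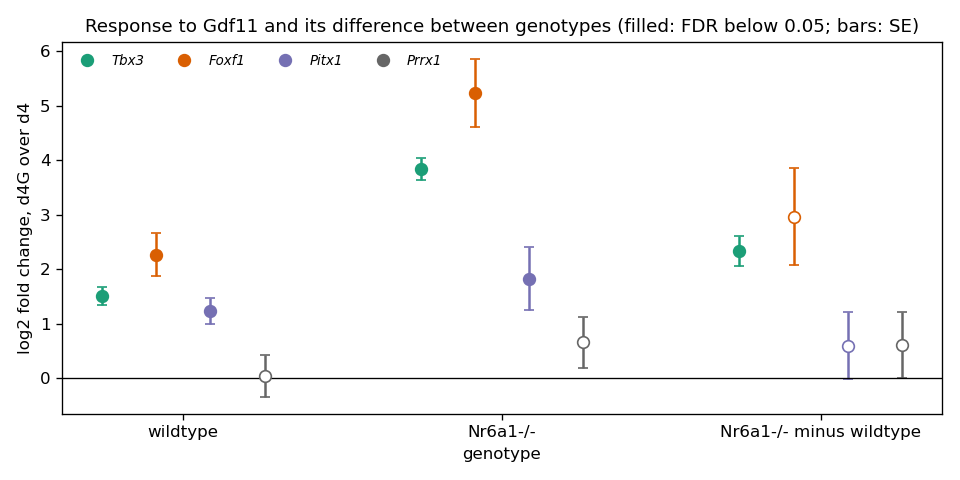
Log2 fold change of d4G over d4 (y axis) with its SE in wildtype cells, in Nr6a1-/- cells and as the difference between them (x axis), for Tbx3 (green), Foxf1 (orange), Pitx1 (purple) and Prrx1 (grey), filled where the edgeR FDR is below 0.05. Tbx3 responds by 1.51 in wildtype and 3.84 in Nr6a1-/- cells, and of the differences its own, 2.33, is the filled one.

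Across the 10 group means the tested factors followed each other to different degrees. On log2(CPM + 1), Pearson's r was 0.799 for Foxf1 and Pitx1, 0.788 for Prrx1 and Tbx3, 0.703 for Foxf1 and Tbx3, and 0.444 for Foxf1 and Prrx1. The tested genes with the most similar course were Bmpr2 (r = 0.964), Sln (0.962) and Shisa2 (0.961) for Foxf1, Ankrd10 (0.96), Ece1 (0.96) and Hes1 (0.948) for Tbx3, Gpx3 (0.954), H19 (0.951) and Rdh10 (0.944) for Pitx1, and 1810043G02Rik (0.979), Il6st (0.976) and Commd3 (0.973) for Prrx1. These values rank 12149 genes over 10 points that share libraries and treatments, and they describe likeness only. H19, a long noncoding RNA, had a mean of 616 CPM in wildtype against 6.81 CPM in Nr6a1-/- cells at d4G.

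Of 26 other transcription factors listed for the lateral plate and limb field, 13 were tested with Gdf11, and 6 rose and 2 fell in wildtype (against 28.8% of all tested genes called) while 4 rose and 0 fell in Nr6a1-/- cells (against 18%). The median of these 13 was 0.268 and 0.167 on the log2 scale, against 0.02 and -0.02 over all tested genes. Msx2, a target of BMP signalling, responded more strongly in Nr6a1-/- cells, by a log2 difference of 2.40 (SE 0.476, FDR = 0.00175). Msx2 was lower at d4 (-2.34, FDR = 3e-05) and stood at 13.4 ± 1.74 and 13.9 ± 0.572 CPM at d4G.

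Between genotypes, Nr6a1-/- cells had 3 of these 13 factors higher and 7 lower at d4 (against 18.9% of all tested genes called), then 2 higher and 2 lower at d4G (against 7.9%). The largest falls at d4 were in Barx1 (-2.62, SE 0.706, FDR = 0.00688), a homeobox factor of stomach mesenchyme, Msx2, Msx1 (-2.24, SE 0.223, FDR = 7.1e-10) and Gata4 (-2.07, SE 0.502, FDR = 0.0027). At d4G Barx1 stood at 15.8 ± 3 CPM in wildtype against 0.624 ± 0.741 CPM in Nr6a1-/- cells, and Gata6, a factor of lateral mesoderm and endoderm, was lower by a log2 difference of -1.90 (FDR = 0.0368). Meis2, a cofactor of Hox proteins, was higher at both stages (0.94 and 0.67). Tbx5, which marks the forelimb field, had 4 counts in the 3 wildtype libraries of d4 and none in those of d4G. In Nr6a1-/- cells it had 4 and 1, and these counts are too few to show a change.

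Limb field signals divided by molecule. Fgf8, which is made by tail-end progenitors and the limb ridge, fell with Gdf11 in wildtype (log2 -1.54, FDR = 4.97e-11) and Nr6a1-/- cells (-1.80, FDR = 3.51e-10) and was lower in Nr6a1-/- cells at d4 and d4G. Aldh1a2, the enzyme that makes retinoic acid, stood at 12 ± 0.815 CPM in wildtype against 376 ± 8.49 CPM in Nr6a1-/- cells at d4 and fell with Gdf11 in both, by 1.52 and by 4.11 on the log2 scale. The fall was larger in Nr6a1-/- cells (difference -2.59, SE 0.422, FDR = 0.000136). Bmp4, an inducer of lateral mesoderm, rose with Gdf11 in Nr6a1-/- cells (2.86, SE 0.747, FDR = 0.00534) from 4 counts over the 3 libraries of d4. Endogenous Gdf11 RNA was lower in Nr6a1-/- cells at d4 (-1.72, SE 0.203, FDR = 3.82e-08). Fgf10, the signal that drives limb budding, had at most 4 counts in a library at d4 or d4G, and Shh had no count there. Of 17 signals listed 11 were tested, and 3 rose and 3 fell with Gdf11 in wildtype (28.8% of all tested genes were called), while 5 rose and 3 fell in Nr6a1-/- cells (18%), with medians of 0.239 and 0.493.

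All 10 Hox genes listed for hindlimb level were tested with Gdf11, and 9 rose and 1, Hoxb9, fell in wildtype (-0.73, FDR = 0.000158), while 9 rose in Nr6a1-/- cells. Of all tested genes 28.8% and 18% were called in these comparisons. Hoxc10 went from 2.31 ± 1.04 to 282 ± 7.61 CPM in wildtype and from 2.49 ± 2.39 to 92.9 ± 8.15 CPM in Nr6a1-/- cells (SD, n = 3). Hoxa9 was lower in Nr6a1-/- cells at d4 (-2.06, FDR = 1.1e-09), reached 156 ± 6.07 and 146 ± 5.28 CPM at d4G, and its response differed between genotypes (1.97, SE 0.243, FDR = 1.98e-06). At d4G Hoxc11 (1.18, SE 0.154) and Hoxd11 (0.84, SE 0.122) were higher in Nr6a1-/- cells, and Hoxc10 (-1.60, SE 0.153), Hoxc9 (-1.59, SE 0.128) and Hoxd9 (-0.79, SE 0.167) were lower. Of 10 listed partners of the Hand and Isl1 proteins, 6 were tested, and in wildtype Tcf4, an E protein with which bHLH factors pair, rose by 0.67 (FDR = 3.35e-07) and Twist2 by 2.87 (FDR = 0.000133). The summed level of these 10 partners was 477 to 504 CPM in wildtype and 492 to 508 CPM in Nr6a1-/- replicates at d4G, where Hand2 had no count.

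Promoter sequence from RefSeq (GRCm38.p6) was matched for 4 of the 8 factors, Hand2, Isl1, Tbx4 and Prrx1. Windows of 250 bases before to 50 bases after the start were searched on both strands for the direct repeat AGGTCAAGGTCA and the extended single site TCAAGGTCA that Nr6a1 binds, the Smad elements GTCTAGAC and CAGACA, the TCF/LEF element CTTTGAT and the TATA box TATAAA. The extended single site lies inside the direct repeat, so each match of the repeat is also a match of the single site. Over all 32851 windows these were found in 0.00609%, 0.423%, 0.213%, 21%, 3.73% and 13.6%. None of the first 5 was found in the 4 windows, which says only that these letters are not there, and the TATA box was found once, in the window of Tbx4, 85 bases before the start. Isl1 held 37 CpG in its window, Hand2 17, Tbx4 8 and Prrx1 6, against a median of 7. The 250 bases before the start are printed for Prrx1, the tested factor with a window, and for Tbx4, the factor with a match. For both, the RefSeq start lies inside the gene as GENCODE draws it. All printed Tbx4 bases, with the match, fall within the GENCODE gene, which starts at chr11:85886422. Only a part of the printed Prrx1 bases falls within its GENCODE gene. Capitals mark the match, which reads TTTATA on this strand.
Prrx1 chr1:163313651-163313900, minus strand: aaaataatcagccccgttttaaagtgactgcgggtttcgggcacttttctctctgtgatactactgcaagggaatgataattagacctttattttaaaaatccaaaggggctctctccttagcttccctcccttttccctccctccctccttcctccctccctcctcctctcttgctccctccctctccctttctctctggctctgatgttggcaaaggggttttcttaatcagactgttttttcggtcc
Tbx4 chr11:85896515-85896764, plus strand: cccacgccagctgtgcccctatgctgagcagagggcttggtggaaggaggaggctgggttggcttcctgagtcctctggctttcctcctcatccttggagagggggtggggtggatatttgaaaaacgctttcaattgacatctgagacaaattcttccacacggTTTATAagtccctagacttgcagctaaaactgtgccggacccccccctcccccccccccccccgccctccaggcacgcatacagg

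In the GENCODE annotation of GRCm38 the other factors lie at chr11:57828705-57832818 (Hand1, minus strand), chr13:116298281-116309689 (Isl1, minus), chr5:119670669-119684724 (Tbx3, plus), chr11:85886422-85916097 (Tbx4, plus), chr13:55825051-55836192 (Pitx1, minus) and chr1:163245119-163313710 (Prrx1, minus). Antisense or overlapping transcripts are annotated over Hand2, Foxf1, Tbx3, Pitx1 and Prrx1, and the use of strand in the counting is not given in the sources used here, so their reads cannot be told apart. Of these transcripts, Hand2os1 at Hand2 was not analysed here. Tbx3os1 had 31 counts in the 30 libraries together, Gm47071 at Pitx1 had 38 and Gm26523 at Prrx1 had 7. Gm20388 and Gm27530 at Foxf1 had 0. Fendrr, the long noncoding RNA beside Foxf1, had 12 counts in wildtype and 9 in Nr6a1-/- cells at d4G, and 3 and 0 at d4.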

How the data were processed

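RNA was measured in 30 libraries, 3 in each of 10 groups taken from the labels. The authors built 3′ libraries with molecular identifiers and aligned reads with STAR to mm10 (submitters' processing notes), and deposited whole-number counts per gene, not normalised. The counting tool, strand and collapsing of identifiers are not given in the sources used here. The authors' tables of differential genes were not used. The 8 factors, the gene lists and the tests were chosen with earlier results of these data known. Named genes are the 8 factors, the list genes with the largest called changes (up to 4 per list and comparison), genes within 1 Mb of Foxf1 or Hand2, and the 3 most similar genes. A few list genes are not reported here by name.

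After the filter given above, 1 model with a mean for each of the 10 groups and TMM factors (20 residual degrees of freedom) was fitted to the counts and tested with glmQLFit and glmQLFTest of edgeR 4.0.16 in R 4.3.3, 2-sided. The SE comes from the fold change and its F statistic. The scripts were tested on simulated counts. Alternatives were RLE factors, library totals, TMM without chromosome 8, no filter, DESeq2 1.42.0, a replicate block, the compared libraries alone and leaving out each library. Of 30 replicate pairs 0 were identical. Symbols were placed with GENCODE for 98.8% of tested genes. A count of 0 was taken to allow 3.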

Additional observations from a re-analysis of the deposited data

Results flagged for a closer look

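The response of Tbx3 to Gdf11 differed between the genotypes by the test of the difference itself (edgeR, log2 difference 2.33, SE 0.276, FDR = 7.15e-07). The response was higher in Nr6a1-/- cells, where all 3 d4 replicates lay below all 3 wildtype replicates and all 3 d4G replicates lay above them. The difference stayed past the threshold under every alternative run for it.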

How the results depend on the processing

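The number of the 8 factors called kept within 1.5 times its value, and no called factor changed direction, except as follows. Without the filter and with DESeq2, 1 factor was called at d2 between genotypes (Tbx3 lower), 2 in the difference of Gdf11 responses (Foxf1 and Tbx3) and 1 from d3 to d4 in Nr6a1-/- cells (Foxf1). With DESeq2, 1 was called from d2 to d2.5 in Nr6a1-/- cells, where Prrx1 had an FDR of 0.0591. In fits of only the libraries compared, where Tbx3 was the factor left after the filter, the counts were 1 at d2, 1 at d3, 1 from d2 to d2.5 in each genotype and 0 from d2.5 to d3 in wildtype cells.

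Leaving out single libraries gave 0 to 1 called at d2.5, 2 to 3 at d3 and at d4, 2 to 3 for Gdf11 in Nr6a1-/- cells, 1 to 2 for the difference of Gdf11 responses, 0 to 1 from d2.5 to d3 in wildtype and 0 to 1 from d3 to d4 in Nr6a1-/- cells. Tbx3 was called lower at d2.5 without wildtype replicate 2. Foxf1 was called in the difference of responses without d4 wildtype replicate 1 (3.32, FDR = 0.0201), d4 Nr6a1-/- replicate 1 (3.88, 0.0413), d4G wildtype replicate 3 (3.54, 0.0099) or d4G Nr6a1-/- replicate 3 (3.3, 0.0257). Pitx1 was called from d3 to d4 in Nr6a1-/- cells without d3 replicate 2 or d4 replicate 1.

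Replicate numbers did not pair the libraries: in 0 of 13 comparisons of 2 groups were all 3 correlations of deviations over 0.1, and they ranged from -0.111 to 0.163. With a replicate block the same numbers of factors were called, 0, 0, 3, 3 and 2 between genotypes from d2 to d4G, 3 and 3 with Gdf11 and 1 for its difference. Scaling to library totals moved the median of all genes in the wildtype Gdf11 response to 0.113. Depth limits Hand1, Hand2, Isl1, Tbx4 and Prrx1 at every stage, Foxf1 before d4, and Pitx1 before d3. In Nr6a1-/- cells it also limits Foxf1 at d4 (6 pooled counts) and Pitx1 at d3, d4 and d4G (1, 7 and 23 pooled counts).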
